A study of Homo sapiens with 18 samples.

Results

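AGR2 and 9 other genes of mucus-secreting epithelium were followed through TGFβ-induced epithelial-mesenchymal transition (EMT) in 3 human lung cancer cell lines. The 10 genes were AGR2, its relative AGR3, the transcription factor gene SPDEF, the mucin genes MUC1, MUC4, MUC5AC, MUC5B, MUC13 and MUC16, and the trefoil factor gene TFF3. All 10 were found by symbol among the 19849 genes of the expression table, each read by 1 probe set. AGR2 was chosen by its measured change, the largest mean decrease over the 3 lines, -5.87 on the log2 scale, and AREG came next at -5.22. The values of AGR2 in mesenchymal against parental cells are therefore given as a description, with no test. The other 9 genes were chosen as mucin and secretory cell genes, with earlier results of these data known.

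The lines were A549, HCC827 and NCI-H358, established from human lung cancers, each at 3 arrays of parental and 3 arrays of mesenchymal cells, 18 arrays in 6 groups in all. All cells grew in RPMI1640 with serum and glutamine. Mesenchymal cells had been kept with TGFβ at 2 ng/ml for 3 weeks by the labels and were moved to medium free of it the day before lysis, whereas the study's methods give a span that ends at this time in A549 and one that starts at it and runs on in HCC827 and NCI-H358. Length of treatment and line therefore cannot be told apart in a comparison of lines. The labels name no vehicle for the parental cells. Each line stands for 1 tumor, and by the study's legends the 3 samples of a group were made at the same time, so that a p-value measures only the spread between these samples.

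AGR2 is a resident of the endoplasmic reticulum (ER) of the protein disulfide isomerase family and is needed for making intestinal mucus, and AGR3 is its close relative. Mucins are large proteins heavily decorated with O-linked sugars. MUC5AC and MUC5B are secreted and form the gel of airway mucus, whereas MUC1, MUC4, MUC13 and MUC16 are anchored in the plasma membrane. SPDEF is a transcription factor of goblet cells, and TFF3 is a small secreted peptide that accompanies mucins.

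RefSeq promoters on GRCh38.p14 were found for 7 of the 10 genes, namely AGR2, AGR3, SPDEF, MUC1, MUC4, MUC13 and MUC16. The 250 bases before the annotated start are printed for 3 of them. AGR2 is shown as the gene the choice rested on, and AGR3 and MUC1 because they were the 2 among the 7 that held the E-box CAGGTG before their start. This E-box is the sequence that ZEB and SNAIL repressors are known to bind. Capitals mark it on either strand, CACCTG being its reverse complement. All 3 genes lie on the minus strand, at chr7:16805000-16805249 (AGR2), chr7:16881984-16882233 (AGR3) and chr1:155192916-155193165 (MUC1), and the sequences read 5′ to 3′ toward the gene.
AGR2: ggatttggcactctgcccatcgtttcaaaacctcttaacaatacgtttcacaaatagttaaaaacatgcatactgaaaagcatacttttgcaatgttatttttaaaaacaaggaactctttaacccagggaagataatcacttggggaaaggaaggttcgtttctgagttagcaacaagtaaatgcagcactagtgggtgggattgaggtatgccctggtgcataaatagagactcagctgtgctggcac
AGR3: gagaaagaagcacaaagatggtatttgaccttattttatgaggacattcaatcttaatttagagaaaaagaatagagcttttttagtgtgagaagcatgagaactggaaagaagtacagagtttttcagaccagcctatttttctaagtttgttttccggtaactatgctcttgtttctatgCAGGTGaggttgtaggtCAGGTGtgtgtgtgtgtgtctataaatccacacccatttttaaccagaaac
MUC1: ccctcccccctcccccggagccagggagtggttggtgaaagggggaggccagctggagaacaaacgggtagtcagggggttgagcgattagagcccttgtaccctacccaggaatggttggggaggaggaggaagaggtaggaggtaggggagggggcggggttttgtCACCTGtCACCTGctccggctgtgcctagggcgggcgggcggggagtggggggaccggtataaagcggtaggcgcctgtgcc

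AGR3 held 2 E-boxes, beginning 68 and 51 bases before the start, and MUC1 held 2, beginning 82 and 75 bases before it. Of 27305 promoters of the same length, 17.5% held at least 1 and 2.55% held 2 or more. AGR2 had its nearest E-box after the start, at base 45 of the transcribed sequence, and MUC16 had one at base 14. The other motifs were searched on both strands as well. The forkhead letters TGTTTAC or TGTTTGC were in 0 of the 7 windows and in 6.05% of all promoters. The SMAD letters CAGACA were in MUC16, 118 bases before the start, and in 13.6% of all promoters. The TATA box letters TATAAA were in AGR3 and MUC1, 31 and 24 bases before the start, and in 11.1% of all promoters. No 2 of these motifs overlapped in the windows, and a match is a description of the letters, not of a bound site. The promoters also differed in composition, with 40.4% G and C in AGR2, 36.4% in AGR3 and 66.0% in MUC1, against a median of 58.0% over all promoters.

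**Figure D1:**
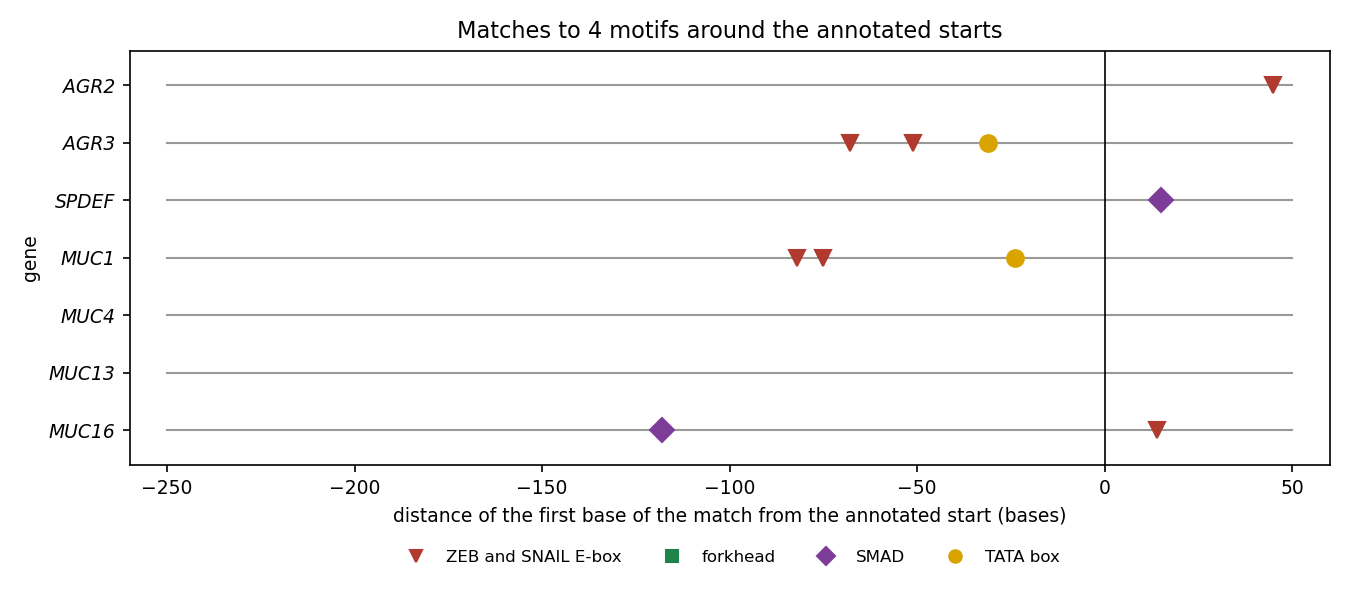
Positions of motif matches on either strand around the annotated starts of 7 genes (x axis: distance from the start in bases; grey line: the window searched; symbol: first base of a match). AGR3 and MUC1 each hold 2 E-boxes and a TATA box before the start, and AGR2 holds no match there.

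Levels are given as RMA log2 values, on which 1 unit is a 2-fold difference, and tests compared groups within a gene only. Percentiles and quartiles among all genes give a rough place, since probe sets differ in response. A gene is said to have fallen or risen where the limma adjusted p was below 0.05, and is called where the change also exceeded 5-fold at an adjusted p below 1e-05, the study's thresholds. Array medians lay between 6.31 and 6.47. The standard deviation of gene differences was 0.163 to 0.282 between arrays of a group and 0.719 to 0.896 between the states of a line. Replicate 1 of parental HCC827 stood apart. It was the highest of its group for 9 of the 10 genes, its limma array weight of 0.273 was the lowest of the 18, and its median deviation from the other 2 arrays over all genes was 0.148. Its values lay 0.95 above the mean of the other 2 for AGR2, 1.03 for MUC4, 0.88 for MUC5AC and 0.65 for MUC16. Changes of the 10 genes in HCC827 are therefore also given without it.

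Within each line the marker genes changed in the direction of the labels. Of 6 epithelial marker genes, 5 fell in A549 and 6 fell in HCC827 and NCI-H358, and CDH1, EPCAM and KRT19 were called in every line. CDH1, which encodes E-cadherin, changed by -5.81, -2.95 and -3.94 in the order A549, HCC827, NCI-H358. In the mesenchymal cells of these lines, 3, 6 and 5 of the 6 epithelial genes were still above the upper quartile of all genes. Levels did not follow the labels across lines, since CDH1 was at 10.11 in mesenchymal HCC827 against 9.32 in parental A549. All 6 mesenchymal marker genes rose in every line, but CDH2 was at 10.23 in parental A549 against 8.20 in mesenchymal HCC827. ZEB1, which encodes one of the E-box repressors, rose by 0.79, 4.18 and 3.66 in the same order, and was already at 9.33 in parental A549 against 6.02 and 6.13 in the other parental lines. SNAI1 rose by 0.52, 0.85 and 0.92 (limma adjusted p = 0.00202, 1.52e-05 and 8.52e-06).

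AGR2 went from a high to a low level in all 3 lines. In A549 the parental arrays read 10.99, 10.41 and 10.46 and the mesenchymal arrays 5.17, 4.91 and 4.97. In HCC827 they read 11.35, 10.43 and 10.36 before and 4.85, 4.22 and 5.16 after treatment. In NCI-H358 they read 11.68, 11.78 and 11.86 before and 5.89, 5.56 and 5.74 after. Every mesenchymal array was thus below every parental array, across lines as well as within them. The parental means of 10.62 ± 0.32, 10.72 ± 0.55 and 11.78 ± 0.09 (SD, n = 3 each) lay between the percentiles 93.4 and 97.7 of all genes, and the mesenchymal means of 5.02 ± 0.14, 4.74 ± 0.48 and 5.73 ± 0.17 between 26.2 and 40.9. Taking the lines in the order A549, HCC827, NCI-H358, the change was -5.60, -5.97 and -6.05, or 48.5-, 62.8- and 66.1-fold lower, each with an SE of 0.24. Without replicate 1 of parental HCC827 the change in that line was -5.66. In bulk RNA, fewer cells that make a transcript and less transcript per cell cannot be told apart.

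As a description with no test, the AGR2 change in HCC827 differed from that in A549 by -0.37, that in NCI-H358 from that in A549 by -0.44, and that in NCI-H358 from that in HCC827 by -0.07. The levels themselves differed, with NCI-H358 highest in both states. Parental NCI-H358 was above parental A549 by 1.16 (limma adjusted p = 0.000524) and above parental HCC827 by 1.06 (adjusted p = 0.00132), with no overlap of arrays. Mesenchymal NCI-H358 was above mesenchymal HCC827 by 0.99 (adjusted p = 0.00231) and above mesenchymal A549 by 0.71 (adjusted p = 0.0187), and the latter did not pass without mesenchymal replicate 2 of A549 (0.66, adjusted p = 0.0572) or without mesenchymal replicate 1 of NCI-H358 (0.63, adjusted p = 0.0656). A549 and HCC827 overlapped in both states, with differences of 0.10 in parental and -0.27 in mesenchymal cells (adjusted p = 0.763 and 0.365).

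**Figure D2:**
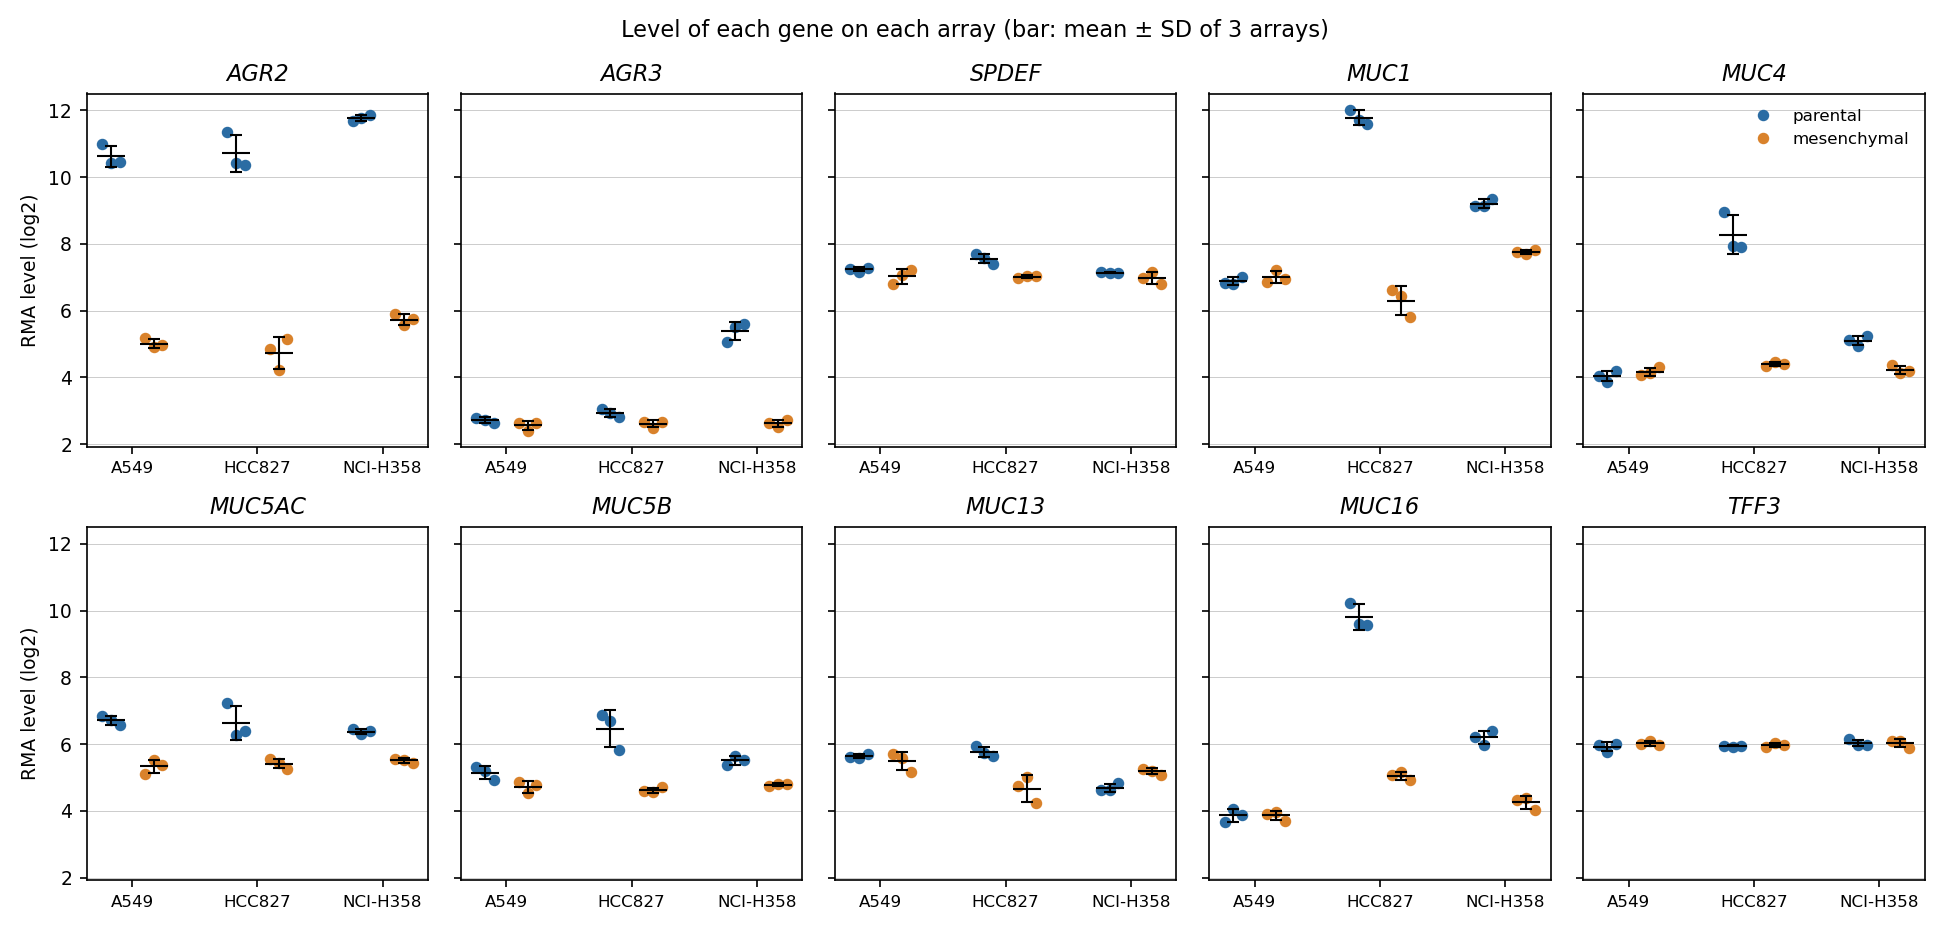
RMA log2 level (y axis) of each of the 10 genes on each of the 18 arrays, by cell line, with parental cells in blue and mesenchymal cells in orange, and bars for the mean ± SD of 3 arrays. AGR2 drops from above 10 to below 6 in all 3 lines, whereas MUC1, MUC4 and MUC16 are highest in parental HCC827 and AGR3 is raised in parental NCI-H358 alone.

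AGR3, which neighbors AGR2 on chromosome 7, had a different pattern. Parental NCI-H358 read 5.07, 5.51 and 5.59, and the mesenchymal arrays of that line read 2.63, 2.53 and 2.74. All 12 arrays of A549 and HCC827 lay between 2.41 and 3.06. AGR3 was thus raised in 1 group of the 6, and every other group lay at or below percentile 4.35 of all genes, at the low end of the scale. In NCI-H358 it fell by 2.76 (SE 0.12, 6.77-fold, limma adjusted p = 4.57e-12). In HCC827 it fell by 0.33 (adjusted p = 0.0291), which without replicate 1 of the parental cells was -0.27 (adjusted p = 0.112). In A549 the change was -0.16 (adjusted p = 0.30). The decrease in NCI-H358 exceeded that in A549 by 2.60 (limma adjusted p = 1.38e-09) and that in HCC827 by 2.43 (adjusted p = 5.22e-09). How far the bottom of the scale limits the changes in A549 and HCC827 was not tested.

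SPDEF differed little between groups, with 18 arrays between 6.79 and 7.69. It fell by 0.54 in HCC827 (SE 0.10, limma adjusted p = 0.000269), where parental arrays read 7.69, 7.59 and 7.40 and mesenchymal arrays 6.98, 7.03 and 7.05, and without replicate 1 of the parental cells the change was -0.48 (adjusted p = 0.00208). The changes of -0.21 in A549 and -0.16 in NCI-H358 did not pass (adjusted p = 0.116 and 0.232), and arrays of the 2 states overlapped in both lines. The SPDEF probe set is of a kind whose probes can match other transcripts.

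MUC1, the membrane mucin found on most glandular epithelia, fell in HCC827 and NCI-H358. In HCC827 the parental arrays read 12.02, 11.70 and 11.60 and the mesenchymal arrays 6.63, 6.45 and 5.82. In NCI-H358 they read 9.14, 9.12 and 9.35 before and 7.75, 7.69 and 7.81 after, and in A549 they read 6.84, 6.80 and 7.01 before and 6.85, 7.21 and 6.95 after. The states did not overlap in the first 2 of these lines and overlapped in A549. The decrease was 44.4-fold in HCC827, a change of -5.47 (SE 0.16, limma adjusted p = 4.08e-14), which was -5.35 without replicate 1 of the parental cells. It was 2.74-fold in NCI-H358, a change of -1.46 (adjusted p = 1.13e-06). In A549 the change was 0.12 (95% interval -0.23 to 0.47, adjusted p = 0.603).

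MUC4, a membrane mucin that binds the receptor ERBB2, was high in parental HCC827 alone. That group read 8.96, 7.95 and 7.92, and its mesenchymal arrays read 4.34, 4.46 and 4.39. NCI-H358 read 5.13, 4.95 and 5.24 before and 4.36, 4.12 and 4.19 after, and the 6 arrays of A549 lay between 3.88 and 4.30. Mesenchymal arrays of all 3 lines thus fell in a narrow range near the A549 level. MUC4 fell 14.8-fold in HCC827, by 3.88 (SE 0.19, limma adjusted p = 2.96e-11), and by 3.54 without replicate 1. In NCI-H358 it fell by 0.88 (adjusted p = 0.00128), and in A549 its change was 0.13 (adjusted p = 0.628).

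MUC16, the membrane mucin that carries the CA125 antigen, had the widest spread of parental levels among the 10 genes. Parental HCC827 read 10.24, 9.60 and 9.57 and mesenchymal HCC827 5.07, 5.17 and 4.92. NCI-H358 read 6.21, 5.99 and 6.40 before and 4.34, 4.39 and 4.04 after, whereas all 6 A549 arrays lay between 3.67 and 4.05. MUC16 fell 26.8-fold in HCC827, by 4.75 (SE 0.16, limma adjusted p = 2.51e-13), and by 4.53 without replicate 1. It fell 3.84-fold in NCI-H358, by 1.94 (adjusted p = 3.07e-08), and its change in A549 was 0.00 (95% interval -0.34 to 0.34, adjusted p = 0.999). Mesenchymal HCC827 remained above mesenchymal A549 by 1.19 (adjusted p = 6.52e-06) and above mesenchymal NCI-H358 by 0.80 (adjusted p = 0.000422).

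MUC13, a membrane mucin best known from the intestine, moved in opposite directions in HCC827 and NCI-H358. In HCC827 it fell from 5.94, 5.73 and 5.65 to 4.74, 5.03 and 4.23, a change of -1.11 (SE 0.16, limma adjusted p = 1.88e-05), which was -1.02 without replicate 1 of the parental cells (adjusted p = 0.000198). In NCI-H358 it rose from 4.62, 4.63 and 4.84 to 5.26, 5.21 and 5.09, a change of 0.49 (adjusted p = 0.0217), which did not pass without replicate 1 or 2 of the parental or of the mesenchymal cells (adjusted p up to 0.069). The change in A549 was -0.15 (adjusted p = 0.49). The difference of change between NCI-H358 and HCC827 was 1.59 (limma adjusted p = 2.68e-05).

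MUC5AC, the gel-forming mucin of airway goblet cells, was the one gene of the 9 that fell in all 3 lines. In A549 it went from 6.83, 6.73 and 6.57 to 5.11, 5.52 and 5.37, a decrease of 2.60-fold (-1.38, SE 0.18, limma adjusted p = 6.14e-06). In HCC827 it went from 7.22, 6.28 and 6.40 to 5.55, 5.44 and 5.27 (-1.22, adjusted p = 1.84e-05), and by -0.92 without replicate 1 (adjusted p = 5.41e-06). In NCI-H358 it went from 6.44, 6.29 and 6.38 to 5.57, 5.53 and 5.44 (-0.86, adjusted p = 0.000701). Parental and mesenchymal arrays did not overlap in any of the lines, and none of the decreases reached 5-fold. The 3 changes did not pass a test of difference from each other, the widest gap being 0.52 between NCI-H358 and A549 (95% interval -0.01 to 1.05, adjusted p = 0.112).

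MUC5B, the other gel-forming airway mucin and the gene next to MUC5AC among protein-coding genes, fell in HCC827 and NCI-H358. In HCC827 it fell by 1.84 (SE 0.19, 3.59-fold, limma adjusted p = 3.1e-07), from 6.88, 6.68 and 5.84 to 4.59, 4.57 and 4.71, and by 1.64 without replicate 1. In NCI-H358 it fell by 0.73 (adjusted p = 0.00435). In A549 the change of -0.42 did not pass (adjusted p = 0.0853), although the arrays of the states did not overlap. The decrease in HCC827 exceeded that in A549 by 1.42 (adjusted p = 0.000329) and that in NCI-H358 by 1.11 (adjusted p = 0.00312).

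TFF3 stayed between 5.76 and 6.14 on all 18 arrays. Its changes were 0.10, 0.04 and -0.01 in the order A549, HCC827, NCI-H358 (limma adjusted p = 0.323, 0.744 and 0.932), and the 95% intervals lay within -0.18 and 0.27. Without replicate 1 of parental HCC827 the change in that line was also 0.04 (adjusted p = 0.771).

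**Figure D3:**
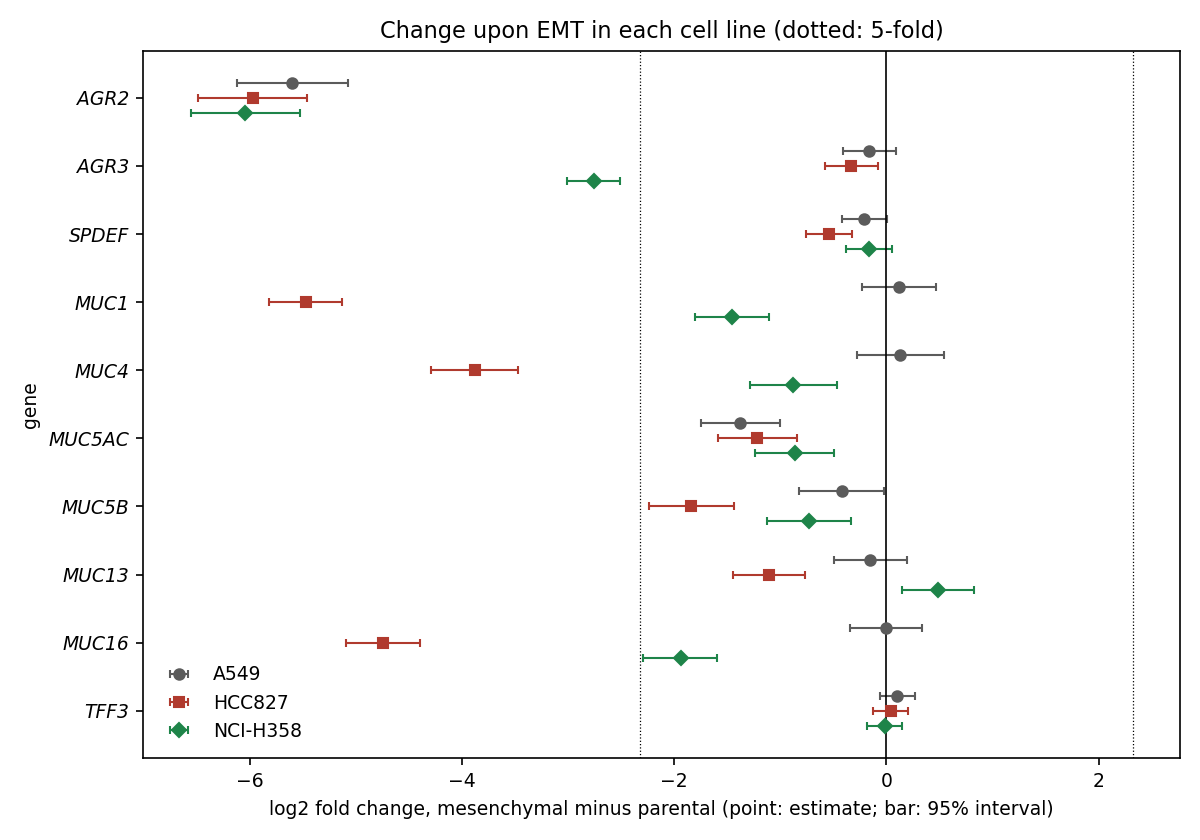
Log2 fold change of mesenchymal against parental cells (x axis) for each of the 10 genes in each line, as the estimate with its 95% interval, with dotted lines at 5-fold. AGR2 lies at -5.60 to -6.05 in all 3 lines, whereas MUC1, MUC4 and MUC16 pass the dotted line in HCC827 and AGR3 in NCI-H358.

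Counted over the 9 genes other than AGR2, the lines differed in how many fell. In A549, 1 fell (MUC5AC), 8 did not pass and 0 were called by limma, where over all genes 26.8% fell, 16.6% rose, 0.736% were called lower and 1.17% called higher. At an unadjusted p below 0.05, limma gave 2 of the 9 genes and the methods' t-test 1 in that line. In HCC827, 8 fell and TFF3 did not pass, and 3 were called lower (MUC1, MUC4 and MUC16), where over all genes 25.0% fell, 20.8% rose, 1.63% were called lower and 1.32% called higher. In NCI-H358, 6 fell, MUC13 rose and 2 did not pass, and AGR3 was called lower, where over all genes 19.8% fell, 21.5% rose, 1.36% were called lower and 0.811% called higher. The median changes of the 9 in these lines were -0.15, -1.22 and -0.86, against -0.02, 0.01 and 0.02 over all genes. The share that fell in A549 was below that over all genes, and the shares in the other lines were above it.

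Most of the difference between lines lay in the parental cells. Between parental HCC827 and parental A549, MUC1, MUC4 and MUC16 were called, higher in HCC827 by 4.89, 4.25 and 5.93, that is 29.6-, 19.0- and 61.2-fold (limma adjusted p = 7e-14, 4.58e-12 and 5.5e-15), where 5.15% of all genes were called. MUC5B and SPDEF were also higher there, by 1.32 (adjusted p = 1.05e-05) and 0.33 (adjusted p = 0.0111), of which that of SPDEF was 0.26 without replicate 1 of parental HCC827 (adjusted p = 0.0564). Between parental NCI-H358 and parental A549, AGR3 and MUC16 were called, higher by 2.66 and 2.33 (adjusted p = 2.18e-12 and 1.12e-09), where 6.19% of all genes were called. MUC16 at 5.03-fold and MUC1 at 4.99-fold sat on either side of the 5-fold limit in that comparison. Between parental NCI-H358 and parental HCC827, AGR3 was higher by 2.45 and MUC1, MUC4 and MUC16 differed by -2.57, -3.17 and -3.61, lower in NCI-H358, and all 4 were called, where 3.32% of all genes were.

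Between mesenchymal HCC827 and A549, MUC1, MUC4 and MUC16 differed by -0.70, 0.23 and 1.19, less than between the parental cells. AGR2, MUC5AC, MUC13 and TFF3 did not lie closer there, and MUC13 was at -0.82 against 0.13 between the parental cells. By limma, 0 of the 10 were called between HCC827 and A549, between NCI-H358 and A549 or between NCI-H358 and HCC827. Over all genes 4.51%, 5.83% and 3.47% were called, so that 0 of 10 is near these shares. At an unadjusted p below 0.05, limma gave 3, 3 and 4 of the 10 genes in these comparisons. The share of all genes at that limit was not worked out, so these counts are a description only. MUC1 was lower in mesenchymal HCC827 than in mesenchymal A549 by 0.70 (adjusted p = 0.00129), the reverse of the parental order, and was highest in mesenchymal NCI-H358, above A549 by 0.74 (adjusted p = 0.000749).

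The change itself was compared between lines within the same fit. MUC1, MUC4 and MUC16 fell further in HCC827 than in A549, with differences of -5.59, -4.02 and -4.75 (limma adjusted p = 7.01e-12, 3.53e-09 and 4.75e-11), where 2.92% of all genes were called. AGR3 was called between NCI-H358 and A549, where 3.01% of all genes were. All 4 of these genes were called between NCI-H358 and HCC827, where 2.06% were, with MUC1, MUC4 and MUC16 falling less in NCI-H358 by 4.02, 3.00 and 2.80 (adjusted p = 6.5e-10, 1.77e-07 and 4.87e-08). The 3 comparisons share arrays, so that their counts are not independent. The membrane mucins MUC1, MUC4 and MUC16 also fell further in NCI-H358 when set against A549, with differences of -1.58, -1.02 and -1.94 (adjusted p = 2.92e-05, 0.00621 and 2.88e-06), short of the 5-fold limit. Parental A549 was already low for MUC4 and MUC16, at 4.03 and 3.87 or percentiles 16.9 and 15.0 of all genes. MUC1 was at 6.88 there, percentile 56.1. How far these starting levels limit the change in A549 was not tested.

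The 5 genes whose levels followed AGR2 most closely over the 18 arrays were MMP7, LIPH, TRIB3, SREBF1 and EFHD2, with Pearson correlations of 0.992, 0.988, 0.976, 0.973 and 0.972. The 18 arrays form 6 groups, and all such genes share the step between parental and mesenchymal cells. MMP7, a secreted protease of glandular epithelia, went from 7.60, 7.62 and 8.05 to 5.41, 5.32 and 5.61 in the order A549, HCC827, NCI-H358. LIPH, a phospholipase, went from 7.68, 8.01 and 8.18 to 5.58, 5.28 and 5.97. SREBF1, a transcription factor of lipid synthesis, went from 9.44, 9.55 and 9.79 to 8.17, 7.56 and 8.0. In all 5 genes parental NCI-H358 had the highest mean of the 6 groups, though for TRIB3 it was 10.08 ± 0.21 against 10.02 ± 0.06 in parental HCC827. As the 5 were picked by likeness to AGR2 on these arrays, a shared order of groups follows largely from the choice. Among the other 9 genes, MUC5AC came closest to AGR2 at 0.915 and MUC5B next at 0.742. AGR3, MUC1 and SPDEF lay at 0.633, 0.623 and 0.620, MUC16 and MUC4 at 0.513 and 0.488, MUC13 at 0.195 and TFF3 at -0.185. In all, 93 genes had a correlation above 0.9.

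Genes related to mucus secretion more widely were taken from 6 lists with 112 genes on the table. These genes include airway secretory products and ion channels as well as genes of mucin making. Taking the lines in the order A549, HCC827, NCI-H358, 2, 9 and 10 of them were called lower, which is 1.79%, 8.04% and 8.93%, where 0.736%, 1.63% and 1.36% of all genes were. In each line 1 was called higher, which is 0.893%, near the 1.17%, 1.32% and 0.811% of all genes. Without replicate 1 of parental HCC827, 8 were called lower and 1 higher in that line. At the adjusted p of 0.05, 23, 35 and 34 fell, which is 20.5%, 31.2% and 30.4% of them against 26.8%, 25.0% and 19.8% of all genes, and 23, 17 and 22 rose, which is 20.5%, 15.2% and 19.6% against 16.6%, 20.8% and 21.5%. The medians of 0.04, 0.00 and -0.04 lay near those of all genes, so that large decreases stood among many genes that changed little. ELF3 alone among the 112 was called lower in all 3 lines, as 0.121% of all genes were, and none was called higher in all 3, as 0.121% of all genes were.

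Among transcription factors of secretory epithelium, ELF3 and its relative EHF are ETS-family factors of epithelia, as SPDEF is. ELF3 changed by -3.06, -5.37 and -3.94 in the order A549, HCC827, NCI-H358 (limma adjusted p = 1.56e-12, 1.32e-15 and 7.76e-14). EHF changed by -5.09 in HCC827 and by -5.39 in NCI-H358 (adjusted p = 2.03e-14 and 1.64e-14), and in A549 its parental level was 5.03 and its change -0.23 (adjusted p = 0.225). FOXA2, a forkhead factor of endoderm, fell in every line (-2.03, -1.81 and -4.86), as KLF4 did (-2.04, -0.71 and -1.25). CREB3L1, an ER-bound factor of secretory cells, rose in every line, by 0.41, 1.84 and 2.54 (adjusted p = 0.00367, 1.17e-10 and 2.27e-12). FOXA1, a forkhead factor related to FOXA2, rose by 2.24 in A549 and changed by -1.82 and -1.85 in the other lines (adjusted p = 2.24e-10, 2.37e-09 and 2.41e-09). XBP1, a factor of the unfolded protein response, rose by 0.66 in A549 and by 0.75 in HCC827 (adjusted p = 0.000201 and 4.83e-05) and changed by -0.03 in NCI-H358 (adjusted p = 0.866). These 2 were chosen after their values were seen. In all, 5, 8 and 10 of the 18 genes of this list fell, which is 27.8%, 44.4% and 55.6%, and 4, 3 and 2 rose. Against all genes, the share that fell in A549 was near the background of 26.8%, and those in HCC827 and NCI-H358 were above their 25.0% and 19.8%.

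The ER folding genes gave no general decrease. Of 23 protein disulfide isomerase and chaperone genes, 4, 6 and 3 fell in the order A549, HCC827, NCI-H358, and 7, 6 and 13 rose. The medians were 0.05, 0.09 and 0.35. Those that rose are 30.4%, 26.1% and 56.5%, against 16.6%, 20.8% and 21.5% of all genes. The share that fell was below that of all genes in A549 and NCI-H358 and near it in HCC827. The one called gene of this list was ERP27, a non-catalytic member of the family of AGR2, with changes of -6.00 in HCC827 and -5.42 in NCI-H358 (limma adjusted p = 5.77e-15 and 3.13e-14), while in A549 it started at 3.99 and changed by 0.24 (adjusted p = 0.221). ERP29, an ER protein of the same family, changed by -0.49, -0.70 and -0.07 (adjusted p = 1.14e-05, 1.19e-07 and 0.487). HSPA5, the main ER chaperone, rose by 0.61, 0.57 and 0.80 (adjusted p = 1.37e-05, 2.3e-05 and 4.8e-07). PDIA3, a disulfide isomerase of glycoprotein folding, rose by 0.68 in A549 and 0.39 in NCI-H358 (adjusted p = 0.000244 and 0.0171) and changed by 0.05 in HCC827 (adjusted p = 0.775). TMX4, a membrane-bound relative, rose by 0.68 in HCC827 and 0.45 in NCI-H358 (adjusted p = 2.08e-07 and 3.11e-05) and changed by 0.03 in A549 (adjusted p = 0.775).

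The enzymes that build O-linked sugars moved in both directions. Of 27, 7, 12 and 10 fell in the order A549, HCC827, NCI-H358, and 11, 6 and 7 rose. Those that fell are 25.9%, 44.4% and 37.0%, against 26.8%, 25.0% and 19.8% of all genes. Those that rose are 40.7%, 22.2% and 25.9%, against 16.6%, 20.8% and 21.5%. GALNT3, which starts O-linked chains, changed by -4.70 in HCC827 and by -3.14 in NCI-H358 and rose by 0.50 from a parental level of 2.99 in A549 (adjusted p = 4.32e-13, 9.21e-11 and 0.0244). The rise in A549 did not pass without parental replicate 3, mesenchymal replicate 2 or mesenchymal replicate 3 (adjusted p = 0.109, 0.0586 and 0.0989). GALNT12 rose by 1.91 in A549 and changed by -0.89 and -3.11 in the other lines, and GALNT10 rose by 1.58, 2.67 and 0.38. GCNT3, which branches mucin sugars, fell in every line (-2.61, -1.90 and -1.09), from its highest parental level, 10.87, in A549. ST6GALNAC1, a sialyltransferase, changed by -2.68 in HCC827 and by -3.48 in NCI-H358 (limma adjusted p = 1.72e-05 and 1.03e-06). Its parental HCC827 arrays spread widely, at 6.12 ± 1.25 (SD), and the change there did not pass the methods' t-test (adjusted p = 0.0586). ST3GAL1 rose by 3.44, 0.42 and 0.86. The rise of ST3GAL1 in HCC827 was 0.33 without the 3 parental arrays of lowest title number (adjusted p = 0.0552).

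Among 14 other mucin and trefoil factor genes, 2, 2 and 3 fell, which is 14.3%, 14.3% and 21.4%, and 1, 1 and 0 rose. The shares that fell were below those of all genes in A549 and HCC827 and near that in NCI-H358. MUC20, which lies next to MUC4, changed by -2.40 in HCC827 and by -1.53 in NCI-H358 (limma adjusted p = 5.72e-08 and 1.56e-05) and changed by 0.02 in A549 (adjusted p = 0.954), and MUC15 fell by 1.54 in NCI-H358. In A549, MUC3B fell by 0.46 (adjusted p = 0.0133) and MUC6 rose by 0.43 (adjusted p = 0.0396), neither of which passed without parental replicate 1 (adjusted p = 0.0822 and 0.117), and MUC19 did not pass in any line (changes of 0.10, 0.21 and 0.22). Of 21 secreted and surface products of airway secretory cells, 2, 6 and 5 fell and none rose. Those that fell are 9.52%, 28.6% and 23.8%, a share below that of all genes in A549 and near it in the other lines. In HCC827, LCN2, which binds iron siderophores, changed by -6.13, the tetraspanin TSPAN8 by -6.25 and PIGR, which carries IgA across epithelia, by -3.23. TSPAN8 also fell by 2.41 in NCI-H358. SLPI, a protease inhibitor of airway fluid, fell in every line (-0.71, -1.35 and -1.46), and WFDC2, a related secreted protein, changed by -0.08, -1.15 and -2.30 (adjusted p = 0.653, 6.65e-07 and 1.12e-10). Of 9 genes of mucus hydration, 3, 1 and 3 fell and 0, 1 and 0 rose. Those that fell are 33.3%, 11.1% and 33.3%, against 26.8%, 25.0% and 19.8% of all genes. SCNN1A, a subunit of the epithelial sodium channel, changed by -1.32, -6.77 and -4.85, and ANO1, a chloride channel, by -3.92 in NCI-H358 (adjusted p = 5.78e-08, 5.44e-17 and 4.85e-15 for SCNN1A and 2.28e-13 for ANO1). SLC12A2, a chloride cotransporter, changed by -0.57 in A549 and -0.54 in NCI-H358 (adjusted p = 0.000134 and 0.000213) and rose by 0.29 in HCC827 (adjusted p = 0.0225), where without replicate 1 of the parental cells the change was 0.27 (adjusted p = 0.0658). SCNN1B and BEST2 did not pass in any line.

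**Figure D4:**
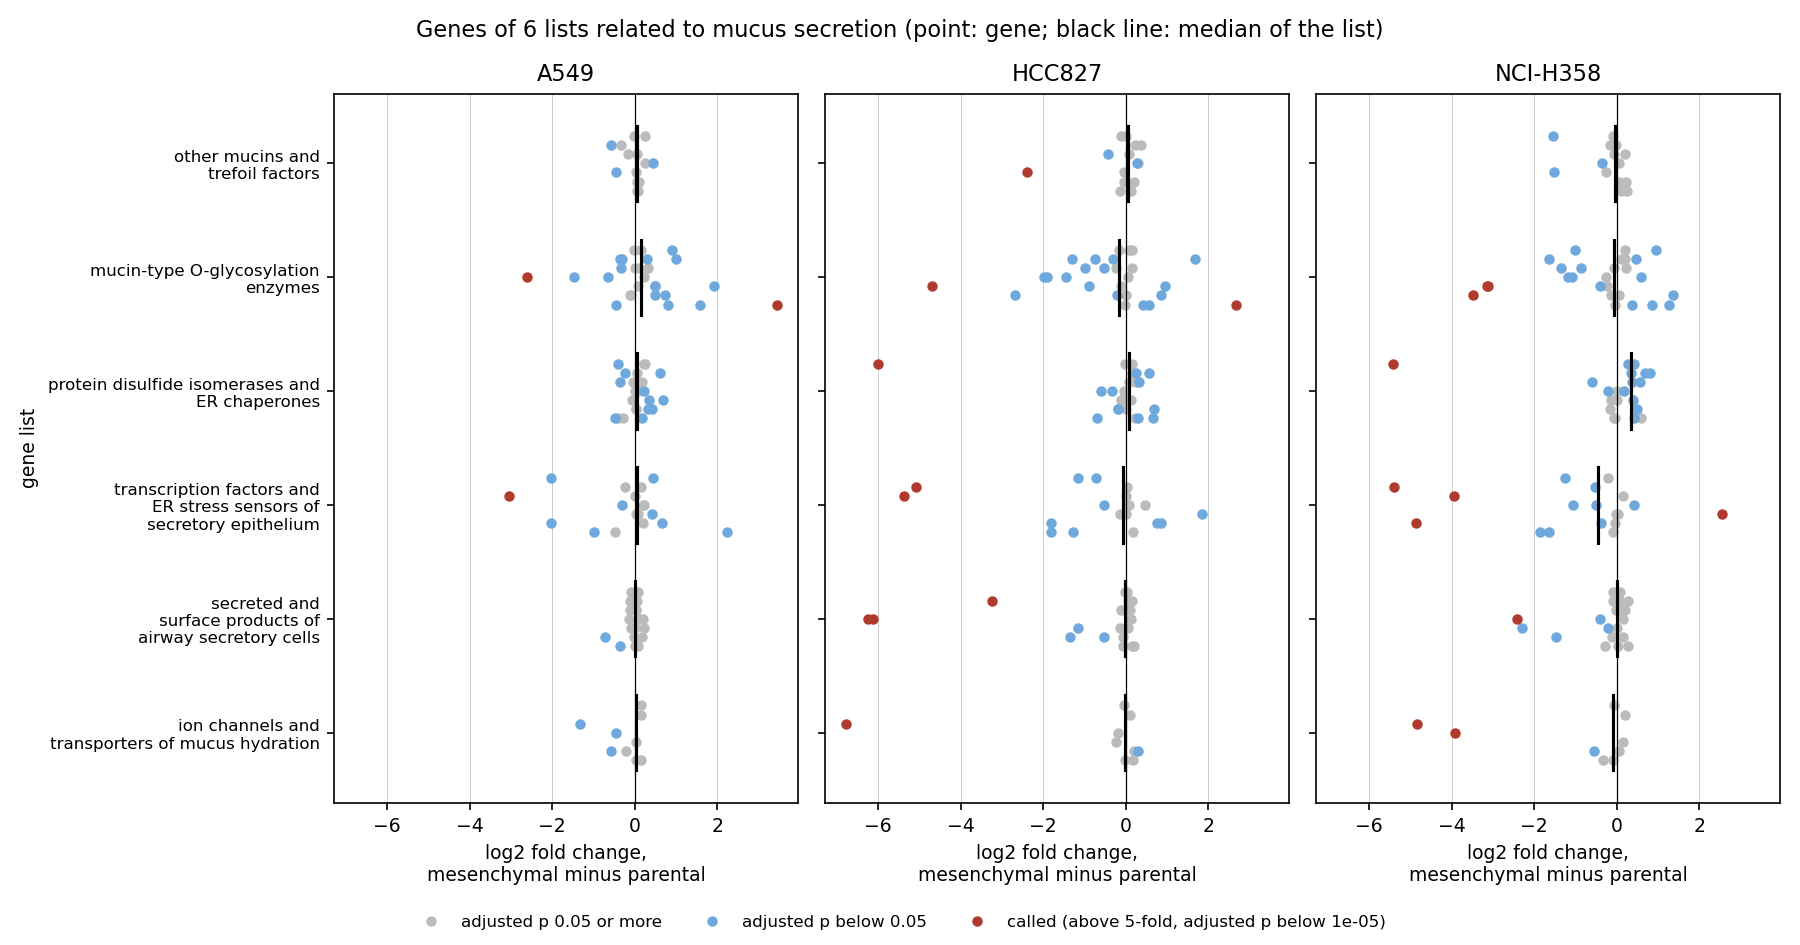
Log2 fold change of mesenchymal against parental cells (x axis) for each gene of 6 lists related to mucus (y axis), by line, with the median of each list as a black line. The medians sit near 0, between -0.45 and 0.35, while single genes reach down to -6.77 in HCC827.

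Of the markers of other lung cell types, NAPSA, LAMP3 and TP63 were called in 1 line each. Over all genes, 26.8%, 25.0% and 19.8% fell and 16.6%, 20.8% and 21.5% rose in the order A549, HCC827, NCI-H358. Of 7 markers of alveolar type 2 cells and lung adenocarcinoma, 1, 2 and 2 fell and 1, 1 and 0 rose in that order. Those that fell are 14.3%, 28.6% and 28.6%, and those that rose 14.3%, 14.3% and 0.0%. NAPSA was called lower in HCC827 (-4.71) and LAMP3 in NCI-H358 (-2.50), whereas SFTPB, SFTPC and SFTPD did not pass in any line. Of 5 ciliated cell markers, 2, 3 and 2 fell and 0, 0 and 1 rose, with RSPH1 at -2.30 in HCC827 and 0.49 in NCI-H358 (adjusted p = 4.15e-09 and 0.0256), CAPS at -1.96 in NCI-H358, and FOXJ1 between 5.42 and 5.74 in every group. Of 6 basal cell markers, 1, 1 and 2 fell, which is 16.7%, 16.7% and 33.3%, and 1, 2 and 0 rose, which is 16.7%, 33.3% and 0.0%. TP63 fell by 4.98 in NCI-H358 from a parental level of 10.02 and rose by 1.81 in A549, and KRT5 lay between 5.41 and 5.83. Of 6 neuroendocrine markers, 1, 0 and 1 fell, which is 16.7%, 0.0% and 16.7%, and 1, 0 and 0 rose, which is 16.7%, 0.0% and 0.0%. In HCC827 and NCI-H358, 4 of the 6 lay below the lower quartile of all genes. The share that fell was above that of all genes in every line for the ciliated list alone, which holds 5 genes. Averaged over its genes, the alveolar list lay at 7.16 to 7.28 in parental and 6.42 to 6.53 in mesenchymal HCC827. Its median change there was only -0.05, and NAPSA at -4.71 weighs heavily on the average. LAMP3 also fell there, by 1.64, ABCA3 rose by 0.60, and the other genes of the list did not pass. The part of this list in the mucin changes was not tested.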

How the data were processed

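RNA of 18 samples was hybridized to Affymetrix U133 Plus 2.0 arrays. RMA was used by the authors to correct background, make the distributions of the arrays equal and summarize probes, and they deposited log2 values for 19849 genes with 1 probe set each. Quantile normalization sets array distributions alike, so that a shift shared by most genes would not be seen. How the probe set was chosen, and the annotation used, were not given in the sources used here. Probe sets differ in response, so that no test compared levels between genes. Percentiles and quartiles among all genes, and means over a list, are rough descriptions across probe sets. Columns were matched to samples by title, and 0 columns lacked one. The RefSeq table held 19326 of the gene IDs, and 26 symbols written as dates were named through their IDs.

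Groups came from the labels, with 3 arrays in each, and this number limits the precision. limma 3.58.1 in R 4.3.3 (lmFit, eBayes) was fitted once to all 18 arrays with 6 groups and no covariate. Contrasts compared mesenchymal with parental cells in each line, lines within a state, and changes between lines. P-values were adjusted by Benjamini-Hochberg over all genes of a contrast. Intervals are 95% intervals of the fit. The limits for a called gene were those of the study, more than 5-fold at an adjusted p below 1e-05.

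The 10 genes, the lists and the motifs were chosen with earlier results of these data known. Named in the text were the 10 genes, the 5 genes with the highest Pearson correlation with AGR2, and from each wider list the genes called in at least 1 line and, up to 5 a list, those with the largest mean change. Any gene of the marker lists could also be named. MUC21, MUC22, GALNT4, TXNDC5 and 2 markers were not found by symbol. Neighboring genes, named in the closing section, and FOXA1 and XBP1 were chosen after values were seen. Promoters and gene order came from RefSeq GRCh38.p14 tables, and motifs were searched in Python 3.11.15. The steps were tested on simulated data. Alternatives were fold limits of 2 and 10, an adjusted p of 0.05, separate fits per line, an intensity trend, array weights, a filter on dim probe sets that kept 12076 genes, the methods' t-test, each array left out in turn, and the 3 parental arrays of lowest title number left out together.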

Additional observations from a re-analysis of the deposited data

Results flagged for a closer look

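The change of 4 genes was called as different between lines by a test of the difference itself, an interaction contrast in the limma fit of all 18 arrays. MUC5B and MUC13 also passed this test at an adjusted p of 0.05 without being called, and SPDEF passed narrowly between NCI-H358 and HCC827 (limma adjusted p = 0.0499). Between HCC827 and A549 the log2 change differed by -5.59 for MUC1, -4.02 for MUC4 and -4.75 for MUC16. Parental A549 was already low for MUC4 and MUC16, at 4.03 and 3.87, and how far this limits its change was not tested. Between NCI-H358 and HCC827 it differed by 4.02 for MUC1, 3.00 for MUC4 and 2.80 for MUC16, the decrease being smaller in NCI-H358. For AGR3 the decrease was larger in NCI-H358, by -2.60 against A549 and by -2.43 against HCC827. Parental A549 and HCC827 were at 2.73 and 2.94 for AGR3, percentiles 1.72 and 4.35 of all genes. How far the bottom of the scale limits their changes was not tested. The 6 differences of MUC1, MUC4 and MUC16 were called in all 23 fits that gave a value, and those of AGR3 in all 22, since the filter on dim probe sets left AGR3 out.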

How the results depend on the processing

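No paired analysis was possible because the labels give no replicate numbers, and the numbers used here only name arrays. Of the counts compared with an alternative, 509 stayed within 1.5 times the reported count, 8 grew and 17 shrank, and of the changes of single genes 193 kept their direction and their side of the threshold. At 2-fold, 1 of the 9 genes other than AGR2 was called lower in A549 and 3 in NCI-H358, and of the wider lists 7, 18 and 20 were called lower and 5, 3 and 3 higher in A549, HCC827 and NCI-H358. At 10-fold, 0 of the 9 were called in NCI-H358, and of the wider lists 0 were called lower in A549 and 0 higher in HCC827 and in NCI-H358. The methods' t-test at the same thresholds called 0 of the 9 lower in HCC827 and NCI-H358. It called 0 of the wider lists in either direction in each line. At an unadjusted p below 0.05 with the same fold it called 3 and 1 of the 9 in HCC827 and NCI-H358, with no share of all genes worked out at that limit. The filter on dim probe sets removed AGR3, MUC13 and TFF3, and left 0 of the 9 called lower in NCI-H358, 1 gene between parental NCI-H358 and A549, and 0 for the change between these lines. With arrays left out in turn, 1 to 3 genes were called between parental NCI-H358 and A549, with 1 called without replicate 1 of parental A549 or without replicate 3 of parental NCI-H358, and MUC16 lies at the 5-fold limit there. Changes near 0 turned sign, over ranges with arrays left out in turn of -0.26 to 0.00 for MUC13 and -0.10 to 0.09 for MUC16 in A549 and -0.05 to 0.05 for TFF3 in NCI-H358. That of MUC13 in A549 was 0.00 without mesenchymal replicate 3, that of MUC16 in A549 was -0.10 without parental replicate 1 and without the 3 parental arrays of lowest title number, -0.02 without mesenchymal replicate 1 and -0.06 without mesenchymal replicate 2, and that of TFF3 in NCI-H358 was 0.04, 0.04 and 0.05 without parental replicate 1, those 3 arrays or mesenchymal replicate 3. The decrease of AGR3 in HCC827 lost its call at 0.05 without parental replicate 1, parental replicate 2 or mesenchymal replicate 2 (limma adjusted p = 0.112, 0.0593 and 0.118), the rise of MUC13 in NCI-H358 without 4 of 6 arrays and without those 3 arrays (0.0565 to 0.0822), and SPDEF in A549 passed without mesenchymal replicate 3 (-0.30, adjusted p = 0.0313). AGR2 stayed between -5.42 and -6.18 in every line with arrays left out in turn.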

Other observations

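The protein-coding genes around AGR2 and AGR3 on chromosome 7 did not move as a block. TSPAN13, on the AGR2 side, changed by 0.26, 0.42 and -0.72 in the order A549, HCC827, NCI-H358 (limma adjusted p = 0.0172, 0.000462 and 1.76e-06), and BZW2 by -0.37, 0.09 and -0.17. AHR, the aryl hydrocarbon receptor gene on the AGR3 side, fell in every line, by 2.62, 1.81 and 1.85 (adjusted p = 3.63e-11, 3.24e-09 and 3.08e-09). MUC2, next to MUC5AC on chromosome 11, changed by 0.07, -0.13 and 0.25 and did not pass in any line (adjusted p = 0.662, 0.372 and 0.0715). Beside MUC20 and MUC4 on chromosome 3, APOD changed by 0.20, 0.05 and -0.20 and did not pass in any line (adjusted p = 0.269, 0.813 and 0.294). PPP1R2, beyond APOD, changed by -0.01, 0.08 and 0.28 and TNK2, on the MUC4 side, by -0.07, 0.24 and 0.64, where the rise of PPP1R2 in NCI-H358 passed (adjusted p = 0.0159), as did those of TNK2 in HCC827 and NCI-H358 (adjusted p = 0.0348 and 1.59e-05). These neighbors were chosen by position after values were seen.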
